A study of Homo sapiens with 18 samples.

Results

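Lowering and raising one long noncoding RNA were set against each other in human skin fibroblasts, gene by gene, in all 18 of the 18 libraries of the series. The cells were of the BJ line, and the RNA was PURPL, a p53-responsive transcript. The 9 knockdown libraries were made with CRISPR interference, in which a guide RNA brings a repressor to a promoter: 3 carried the guide sgRNA-PURPL#1, 3 the guide sgRNA-PURPL#2 and 3 the control guide sgCtrl. The 9 overexpression libraries were 3 of PURPL#1-OE, 3 of PURPL#2-OE and 3 of their control, Ctrl. Whether PURPL#1-OE and PURPL#2-OE are constructs, lines or clones is not stated, and neither is whether replicates came from separate cultures. The p-values therefore measure the spread among these libraries only, which may be technical. The protocol describes poly(A)-selected RNA, although the molecule label reads genomic DNA.

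Each gene received 2 effects from one model over all 18 libraries: the mean of both guide groups minus sgCtrl, called knockdown below, and the mean of both overexpressing groups minus Ctrl, called overexpression. The difference of effects is the first minus the second. It is tested in its own right and does not by itself separate opposed from like changes, since a gene that moved in one experiment alone, or further in one than in the other, also differs. Levels are given as CPM, the reads of a gene relative to the scaled library total, after TMM scaling, effects as log2 changes ± standard error, and a call means an adjusted p under 0.05 in edgeR's quasi-likelihood test over the 15166 genes tested, of 61544 in the tables.

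PURPL is transcribed when p53 is active, and p53 drives the growth arrest of cells with damaged DNA or worn-out telomeres. Fibroblasts that stop dividing for good, the state called senescence, shut down the genes of DNA replication and mitosis and often secrete cytokines, proteases and growth factors. Interferon-stimulated genes are an antiviral programme that many senescent fibroblasts also switch on. The title of the series frames the paired experiment as a question about senescence in both directions. The comparison therefore asks which genes answered the RNA in mirror image and which answered both manipulations in the same way.

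The knockdown libraries held 11444513 to 12896040 counts and the overexpression libraries 18858976 to 27985649. Libraries of one group correlated at 0.988 to 0.994. Fibroblast markers were measured in full, with 8 of 8 tested, and of the markers of keratinocytes, endothelial cells, leukocytes and melanocytes 6 of 18 passed the filter, at no more than 5.31 CPM each. In longer lists, 2 of 7 melanocyte markers were tested, PMEL and MITF, and they summed to 71.1 to 78.5 CPM in overexpressing libraries against 52.4 to 56.2 CPM in Ctrl and to 51.1 to 76.2 CPM in guide libraries against 50.1 to 59.6 CPM in sgCtrl, with MLANA, TYR, TYRP1, DCT and SOX10 below the filter. The 5 of 13 keratinocyte markers tested summed to 10.3 to 15.7 CPM in overexpressing libraries against 10.4 to 11.2 CPM in Ctrl and to 16.3 to 20.6 CPM in guide libraries against 18.4 to 22.1 CPM in sgCtrl, with KRT5, KRT14 and TP63 below it, and their part in the results was not tested. The first principal component, with 68.7% of the variance, parted the knockdown table from the overexpression table, so each effect was taken inside its own table. PURPL itself (chr5:27217714-27496994, plus strand, GRCh38) had 17.8, 15 and 13.9 CPM under sgRNA-PURPL#1 and 18.8, 21.2 and 17.7 CPM under sgRNA-PURPL#2, against 70.2, 76.6 and 92.5 CPM in sgCtrl. It had 168, 180.2 and 178 CPM in PURPL#1-OE and 116, 126 and 129.9 CPM in PURPL#2-OE, against 68.0, 67.6 and 60.0 CPM in Ctrl. No library of either manipulated set overlapped its control. The log2 change was -2.20 ± 0.08 with knockdown (adjusted p = 1.35e-22) and 1.18 ± 0.07 with overexpression (adjusted p = 4.37e-17), and the difference of effects was -3.38 ± 0.10.

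Knockdown called 3916 genes, 25.8% of those tested, with 1940 up (12.8%) and 1976 down (13%). Overexpression called 6658 genes, 43.9%, with 3193 up (21.1%) and 3465 down (22.8%). Both manipulations called 2408 genes, 15.9%, and more of these moved alike than apart. Of them, 1005 (6.63% of genes tested) moved in opposite directions, which is 25.7% of the knockdown calls and 15.1% of the overexpression calls. The other 1403 (9.25% of genes tested) moved the same way, which is 35.8% of the knockdown calls and 21.1% of the overexpression calls. Genes up with knockdown and down with overexpression numbered 564 (3.72% of genes tested), and genes down with knockdown and up with overexpression 441 (2.91%). Genes up with both numbered 569 (3.75%) and genes down with both 834 (5.5%), the largest of the 4 classes. Median changes in the classes were small, at 0.33 and -0.45, -0.32 and 0.37, 0.35 and 0.39, and -0.47 and -0.54 for knockdown and overexpression in that order. At a fold change of 2 or more in both experiments, 57 genes rose with knockdown and fell with overexpression, 10 did the reverse, 19 rose with both and 62 fell with both. Of genes up with knockdown, 29.1% fell and 29.3% rose with overexpression, where 22.8% and 21.1% of all genes tested did. Of genes down with knockdown, 42.2% fell and 22.3% rose with overexpression. The class down with knockdown and up with overexpression was thus near the share over all genes.

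Across all genes the knockdown and overexpression effects were nearly unrelated, with a Pearson correlation of 0.02 and a Spearman correlation of 0.07 over 15166 genes, which are not independent replicates. The legs share no library. The difference of effects itself was called for 5102 genes (33.6%), 2730 above 0 (18%) and 2372 below it (15.6%). All 1005 opposed genes were among them, which follows largely from how the classes are defined, since effects of opposite sign add up in the difference. Also among them were 456 of the 1403 that moved alike, where one manipulation moved the gene further than the other. Each leg also averages a pair of arms, each guide against sgCtrl and each overexpressing group against Ctrl, and a gene is said here to move in every arm when all 4 are called with the sign of its class. That held for 201 genes up with knockdown and down with overexpression (1.33%), 160 of the reverse class (1.05%), 205 up with both (1.35%) and 452 down with both (2.98%). The arms of one table share their control libraries. Manipulated libraries lay wholly on the class's side of their controls in both tables for 291 genes (1.92%), 210 (1.38%), 286 (1.89%) and 531 (3.5%) of the classes in that order.

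**Figure D1:**
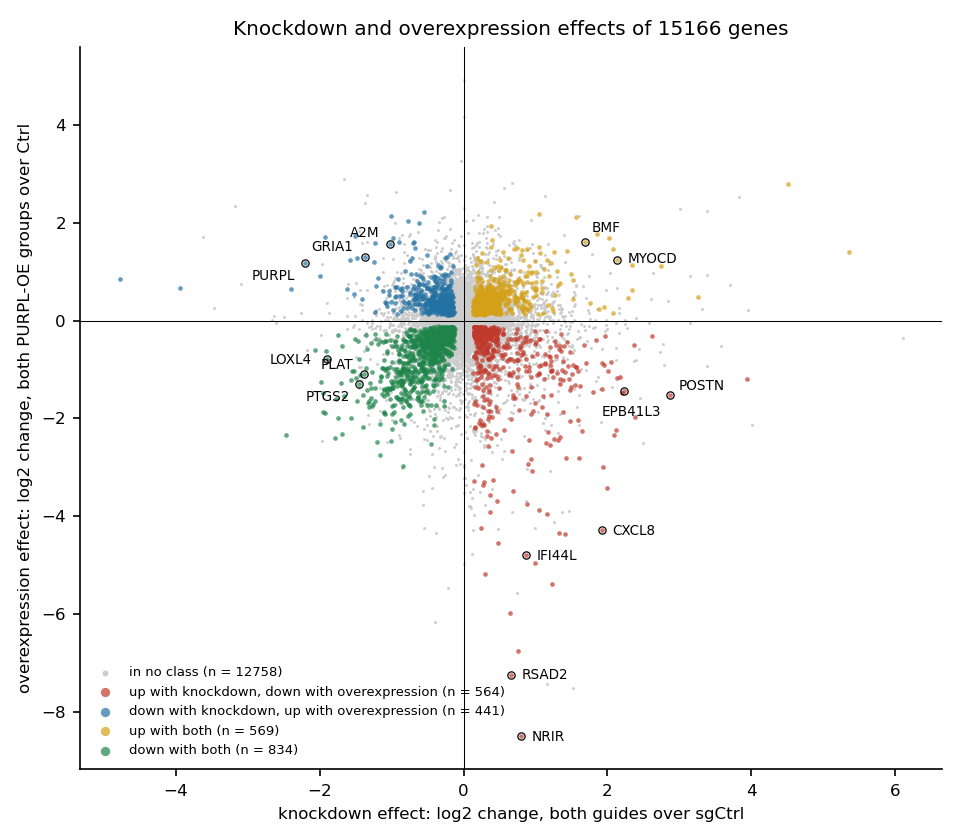
Log2 change with knockdown on the horizontal axis against log2 change with overexpression on the vertical axis, one point for each of the 15166 genes tested, coloured by class. The 834 genes down with both fill the lower left and the 564 up with knockdown and down with overexpression the lower right, where the overexpression changes reach furthest from 0.

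The interferon response held the widest opposed changes. Interferon-stimulated genes encode sensors of foreign RNA, enzymes that destroy it and proteins that block viral entry and budding. Of 33 listed members tested, 26 rose with knockdown and none fell, and all 33 fell with overexpression. The median was 0.29 with knockdown and -3.35 with overexpression, against 0.01 and 0.00 over all genes tested. The difference of effects was called above 0 for 33 of 33. Of the 26 opposed members, 16 moved in every arm, and in 19 members every guide library lay above every sgCtrl library and every overexpressing library below every Ctrl library. OAS3, ISG15, ISG20, IFI6, STAT2, IRF7 and USP18 fell with overexpression and were not called with knockdown.

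The sizes on either side were far from equal. IFI44L, an interferon-induced protein, had 105, 106 and 111 CPM under sgRNA-PURPL#1 and 146, 152 and 142 CPM under sgRNA-PURPL#2, against 67.5, 66.9 and 72.0 CPM in sgCtrl. It had 20.8, 22.4 and 17.3 CPM in PURPL#1-OE and 19.6, 19.9 and 19.5 CPM in PURPL#2-OE, against 566, 542 and 548 CPM in Ctrl. All 6 guide libraries stood above all 3 sgCtrl libraries, and the overexpressing libraries stood far below Ctrl. The change was 0.87 ± 0.06 with knockdown (adjusted p = 4.74e-16) and -4.79 ± 0.05 with overexpression (adjusted p = 1.40e-45). RSAD2, which encodes the antiviral enzyme viperin, had 31.6, 32.8 and 40.9 CPM under sgRNA-PURPL#1 and 40.0, 45.2 and 43.3 CPM under sgRNA-PURPL#2, against 24.5, 23.4 and 25.6 CPM in sgCtrl. It had 2.28, 2.50 and 3.0 CPM in PURPL#1-OE and 2.24, 1.29 and 1.54 CPM in PURPL#2-OE, against 328, 313 and 316 CPM in Ctrl. Guide libraries again all exceeded sgCtrl, by a modest margin, while overexpressing libraries held only traces. The change was 0.66 ± 0.08 with knockdown (adjusted p = 5.99e-09) and -7.23 ± 0.08 with overexpression (adjusted p = 1.72e-45), and its difference of effects, 7.89 ± 0.12, was among the 5 most positive of all genes with a symbol.

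MX1, a dynamin-like antiviral GTPase, averaged 949 ± 10.7 CPM under sgRNA-PURPL#1 and 1148 ± 33.2 CPM under sgRNA-PURPL#2, against 750.1 ± 45.2 CPM in sgCtrl (SD, n = 3 each). It averaged 83.6 ± 5.26 CPM in PURPL#1-OE and 78.8 ± 2.81 CPM in PURPL#2-OE, against 1897 ± 17.7 CPM in Ctrl (SD, n = 3 each). IFIH1, which encodes the RNA sensor MDA5, changed by 0.36 with knockdown and -3.56 with overexpression. BST2, which encodes tetherin, a protein that holds budding virus on the cell, changed by 1.00 with knockdown and -4.96 with overexpression, and IFI27 by 1.23 with knockdown and -5.39 with overexpression. OAS1, an enzyme that makes the activator of RNase L, changed by 0.30 with knockdown and -5.18 with overexpression. The 4 other genes with the most positive difference of effects beside RSAD2 were of this programme too: the long noncoding RNA NRIR, the chemokines CXCL10 and CXCL11, and OASL. CXCL11, whose gene overlaps another in part, summed to 2 counts over the 6 overexpressing libraries and 207 over the 3 Ctrl libraries, a ratio per library size of 0.00486 (95% exact counting interval 0.000584 to 0.0178). CXCL10 summed to 1 count over the overexpressing libraries and 142 over Ctrl, a ratio of 0.00354 (8.9e-05 to 0.0200). These intervals cover counting error only. With knockdown the changes of CXCL10 and CXCL11 were 1.16 ± 0.63 (adjusted p = 0.18) and 1.52 ± 0.69 (adjusted p = 0.106). NRIR changed by 0.79 with knockdown and -8.49 with overexpression, and its knockdown call was lost without sgCtrl replicate 1 (0.70, adjusted p = 0.094) or replicate 2 (0.81, adjusted p = 0.061). OASL changed by 0.76 with knockdown and -6.76 with overexpression, and its knockdown call was lost without sgRNA-PURPL#2 replicate 3 (0.56, adjusted p = 0.076), sgCtrl replicate 2 (0.67, adjusted p = 0.093) or sgCtrl replicate 3 (0.66, adjusted p = 0.081).

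The controls started from different levels. Summed over the 33 members, interferon-stimulated genes came to 6618 ± 37.8 CPM under sgRNA-PURPL#1 and 7979 ± 33.2 CPM under sgRNA-PURPL#2, against 5918 ± 116 CPM in sgCtrl, and to 2395 ± 29.2 CPM in PURPL#1-OE and 2284 ± 49.8 CPM in PURPL#2-OE, against 15720 ± 163 CPM in Ctrl (SD, n = 3 each). Ctrl thus stood above sgCtrl by a wide margin, in tables deposited separately, and the part of that baseline in the opposed result was not tested. In bulk RNA, fewer cells with the programme and less RNA per cell cannot be told apart. The genes of MHC class I antigen presentation fell with overexpression in 14 of 14 cases, with a median of -1.03. With knockdown 1 of the 14 fell, none rose and the median was 0.04, so that list was not a mirror image.

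Promoter sequences are shown for a pair of opposed interferon genes because the core of the interferon-stimulated response element (ISRE), GAAA, any 2 bases and GAAA again, can be read in them. The stretches are the 100 bases before the annotated start, from RefSeq, build GRCh38.p14, written along the gene's strand, with the match on either strand in capitals. IFI44L lies at chr1:78620348-78620447, plus strand and IFIH1 at chr2:162318685-162318784, minus strand, and both genes were picked for display after their values were seen.
IFI44L: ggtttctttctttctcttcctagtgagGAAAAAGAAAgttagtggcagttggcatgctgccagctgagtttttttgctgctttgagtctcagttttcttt
IFIH1: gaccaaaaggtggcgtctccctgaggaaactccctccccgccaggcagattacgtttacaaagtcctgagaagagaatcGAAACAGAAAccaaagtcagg
Over windows from 250 bases before the start to 50 after it, 10.6% of the 433 matched protein-coding genes up with knockdown and down with overexpression held the ISRE letters. The share was 4.24% of the 10012 matched of 12288 protein-coding genes tested, and 2.45% of the reverse class. Of the 33 interferon genes tested, 26 are in the class up with knockdown and down with overexpression. Their part in its share was not tested. Shares are given for sets with at least 80% of genes matched. In the interferon list 78.8% of members had a promoter in the table, and among genes up with both 79.9%, so shares over these 2 sets are not given. A match describes letters, not a bound site.

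Secreted inflammatory signals were opposed in 7 of 17 cases. Of the 17 chemokines and cytokines tested, 8 rose and 1 fell with knockdown (median 0.38), and 1 rose and 15 fell with overexpression (median -2.75). In 5 members every guide library lay above sgCtrl and every overexpressing library below Ctrl. CXCL8, the neutrophil chemokine interleukin-8, had 1.63, 1.80 and 1.64 CPM under sgRNA-PURPL#1 and 2.20, 1.49 and 2.24 CPM under sgRNA-PURPL#2, against 0.257, 0.387 and 0.768 CPM in sgCtrl. It had 1.01, 0.863 and 0.879 CPM in PURPL#1-OE and 0.540, 0.969 and 1.21 CPM in PURPL#2-OE, against 16.7, 18.0 and 18.3 CPM in Ctrl. Guide libraries were all above sgCtrl at a low level, and overexpressing libraries were all below Ctrl. The change was 1.92 ± 0.32 with knockdown (adjusted p = 6.58e-06) and -4.27 ± 0.14 with overexpression (adjusted p = 1.01e-27). CXCL1, a related chemokine, changed by 1.16 with knockdown and -3.95 with overexpression and CSF1, the macrophage growth factor, by 0.38 with knockdown and -0.67 with overexpression. CCL2, which draws monocytes, changed by 0.24 with knockdown and -1.16 with overexpression, and its knockdown call was lost without sgCtrl replicate 2 (0.16, adjusted p = 0.119). The members did not form one block. IL1B, the inflammasome cytokine, fell with both (-1.16 with knockdown and -2.75 with overexpression), and CXCL12, which retains blood stem cells in their niche, rose with both (0.56 with knockdown and 0.80 with overexpression). Summed over the 17 members, levels were 212.6 ± 7.81 CPM under sgRNA-PURPL#1 and 212 ± 6.37 CPM under sgRNA-PURPL#2, against 167 ± 7.68 CPM in sgCtrl (SD, n = 3 each). The overexpression sums lay from 324 to 339 CPM in PURPL#1-OE and from 606 to 627 CPM in PURPL#2-OE, against 518 to 562 CPM in Ctrl, so the groups stood on either side of Ctrl although 15 of 17 members fell. CXCL12 alone averaged 219.9 ± 6.54 CPM in PURPL#1-OE and 457 ± 18.7 CPM in PURPL#2-OE, against 182 ± 15.9 CPM in Ctrl (SD, n = 3 each).

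NFKBIA, the inhibitor that NF-kB itself induces, changed by 0.38 with knockdown and -0.76 with overexpression. Of 18 genes of NF-kB and its feedback, 4 rose and 1 fell with knockdown, a share near the 25.8% called over all genes tested, while none rose and 12 fell with overexpression. The complement factor C3, whose gene partly overlaps another on its strand and so is counted with less certainty, had 22.5, 18.8 and 23.7 CPM under sgRNA-PURPL#1 and 15.2, 17.2 and 16.4 CPM under sgRNA-PURPL#2, against 7.19, 6.74 and 7.15 CPM in sgCtrl. It had 17.7, 18.0 and 16.8 CPM in PURPL#1-OE and 35.4, 40.2 and 43.9 CPM in PURPL#2-OE, against 177, 191 and 189.7 CPM in Ctrl. The guide libraries all exceeded sgCtrl and the overexpressing libraries all fell short of Ctrl. The change was 1.42 ± 0.10 with knockdown (adjusted p = 3.88e-15) and -2.82 ± 0.06 with overexpression (adjusted p = 3.52e-36). MMP1, the collagenase that cuts fibrillar collagen, averaged 269 ± 8.23 CPM under sgRNA-PURPL#1 and 309 ± 21.3 CPM under sgRNA-PURPL#2, against 181 ± 4.26 CPM in sgCtrl, and 94.4 ± 4.68 CPM in PURPL#1-OE and 95.7 ± 3.12 CPM in PURPL#2-OE, against 604 ± 11.5 CPM in Ctrl (SD, n = 3 each). Its log2 change was 0.67 ± 0.05 with knockdown (adjusted p = 3.13e-14) and -2.67 ± 0.05 with overexpression (adjusted p = 1.92e-38). PLA2G4A, the phospholipase that frees arachidonic acid for prostaglandins, changed by 0.75 with knockdown and -1.36 with overexpression, and ATF3, a stress-induced transcription factor, by 0.77 with knockdown and -1.83 with overexpression.

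Other genes named by rank in the opposed class were of mixed function. EPB41L3, a protein that ties the membrane to the actin skeleton, had 34.1, 39.0 and 30.4 CPM under sgRNA-PURPL#1 and 46.1, 37.5 and 44.0 CPM under sgRNA-PURPL#2, against 7.10, 10.1 and 7.30 CPM in sgCtrl. It had 10.4, 12 and 11.5 CPM in PURPL#1-OE and 13.3, 11.8 and 15.1 CPM in PURPL#2-OE, against 33.0, 31.8 and 35.8 CPM in Ctrl. Guide libraries stood at a multiple of sgCtrl and overexpressing libraries well under Ctrl, with no overlap. The change was 2.22 ± 0.11 with knockdown (adjusted p = 3.12e-19) and -1.44 ± 0.08 with overexpression (adjusted p = 6.90e-18). CPNE8, a calcium-dependent membrane-binding protein, changed by 2.12 with knockdown and -2.23 with overexpression, ASPA, which splits N-acetylaspartate, by 1.59 with knockdown and -2.04 with overexpression, and RTP4, an interferon-inducible chaperone of receptors, by 2.00 with knockdown and -3.43 with overexpression. PTPRN and TENM4, which each overlap another gene in part, changed by 1.64 with knockdown and -2.25 with overexpression and 1.80 with knockdown and -1.47 with overexpression. POSTN, the matrix protein periostin, changed by 2.87 with knockdown and -1.52 with overexpression, but its level was 1.78 and 1.83 CPM with the guides against 0.237 CPM in sgCtrl, and 106 and 67.9 CPM in the overexpressing groups against 244 CPM in Ctrl, so the changes took place at levels far apart.

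**Figure D2:**
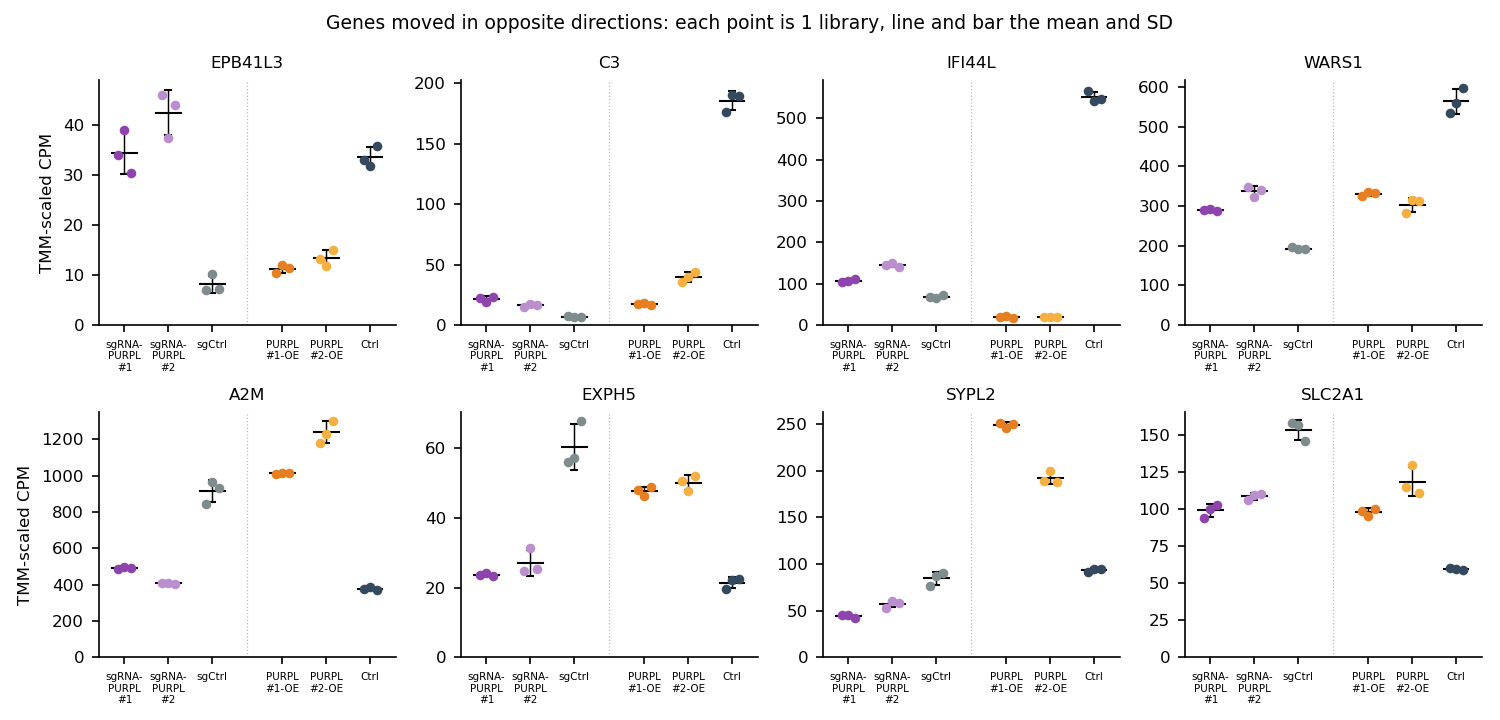
TMM-scaled CPM, on linear axes that start at 0, in each of the 18 libraries for 8 genes that moved in opposite directions, guide groups left of sgCtrl and overexpressing groups left of Ctrl, with a line at each group mean and an error bar of 1 SD (n = 3). EPB41L3, C3, IFI44L and WARS1 are above sgCtrl with both guides and below Ctrl with overexpression, and A2M, EXPH5, SYPL2 and SLC2A1 show the reverse.

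The reverse class, down with knockdown and up with overexpression, was smaller and held no list as a whole. It took in 22.3% of the genes down with knockdown, near the 21.1% of all genes tested that rose with overexpression. A2M, the broad protease inhibitor alpha-2-macroglobulin, had 487, 496 and 494 CPM under sgRNA-PURPL#1 and 409.5, 409.6 and 406 CPM under sgRNA-PURPL#2, against 846, 964 and 932 CPM in sgCtrl. It had 1012, 1016 and 1013 CPM in PURPL#1-OE and 1183, 1230 and 1303 CPM in PURPL#2-OE, against 377, 387 and 372 CPM in Ctrl. Guide libraries were all below sgCtrl and overexpressing libraries all above Ctrl. The change was -1.03 ± 0.05 with knockdown (adjusted p = 1.65e-21) and 1.56 ± 0.05 with overexpression (adjusted p = 9.12e-28). EXPH5, an effector of the vesicle GTPase RAB27, had 23.5, 24.2 and 23.4 CPM under sgRNA-PURPL#1 and 24.6, 31.4 and 25.2 CPM under sgRNA-PURPL#2, against 55.9, 57.1 and 67.8 CPM in sgCtrl. It had 47.8, 46.3 and 48.8 CPM in PURPL#1-OE and 50.4, 47.7 and 52.0 CPM in PURPL#2-OE, against 19.6, 22.1 and 22.4 CPM in Ctrl. Its groups did not overlap in either table, and the change was -1.25 ± 0.07 with knockdown (adjusted p = 1.40e-18) and 1.20 ± 0.07 with overexpression (adjusted p = 1.16e-18). SYPL2, a membrane protein known from the calcium-release triads of muscle, changed by -0.75 ± 0.06 with knockdown (adjusted p = 1.07e-14) and 1.23 ± 0.05 with overexpression (adjusted p = 1.49e-23).

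Further leading members were of mixed function. HSPB3, a small heat shock protein, changed by -0.90 with knockdown and 1.60 with overexpression, ITGA10, a collagen-binding integrin subunit, by -1.19 with knockdown and 0.86 with overexpression, and SLCO2A1, the prostaglandin transporter, by -1.23 with knockdown and 1.58 with overexpression. NR4A1, an immediate early nuclear receptor, changed by -0.91 with knockdown and 0.85 with overexpression. GRIA1, a glutamate receptor subunit, MEST, an imprinted gene, and GDPD5 overlap other genes in part, and changed by -1.37 with knockdown and 1.29 with overexpression, -0.82 with knockdown and 1.02 with overexpression and -0.73 with knockdown and 0.96 with overexpression. The Wnt pathway had 5 of 29 tested members in this class (17.2%, against 2.91% of all genes tested), 2 of them in every arm. Another 3 members rose with both and 3 fell with both. FZD4, a Wnt receptor, changed by -0.78 with knockdown and 0.36 with overexpression and the ligand WNT5A by -0.18 with knockdown and 0.82 with overexpression. Among 20 contractile and TGF-beta responsive genes, 4 were in this class (20%, against 2.91% of all genes tested), 1 of them in every arm. The guides differed over this list, with 5 up and 7 down under guide 1 and 9 up and 2 down under guide 2. CNN1, which binds actin in smooth muscle, changed by -0.59 with knockdown and 0.58 with overexpression, and TAGLN, which overlaps another gene in part, by -0.37 with knockdown and 0.50 with overexpression. PERP, a p53 target at cell junctions, changed by -0.31 with knockdown and 0.54 with overexpression and was, with PURPL, 1 of 2 of the 35 p53 targets tested in this class. Of the other targets 4 rose with knockdown and fell with overexpression, 3 rose with both and none fell with both. CDKN1A, the p53-induced inhibitor of cyclin-dependent kinases, was one of those 4, at 0.18 with knockdown and -0.19 with overexpression, and its knockdown call was lost without sgCtrl replicate 3 (0.14, adjusted p = 0.08). The glucose transporter gene SLC2A1 and LDHA, which makes lactate, both partly overlapping other genes, changed by -0.57 with knockdown and 0.85 with overexpression and -0.53 with knockdown and 0.19 with overexpression.

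Genes of mitosis and DNA replication fell with both manipulations. The mitosis list of kinases, kinesins and kinetochore proteins had 48 members tested: 48 fell with knockdown and 48 with overexpression, with medians of -0.77 and -1.23. In 46 of them every guide library lay below every sgCtrl library and every overexpressing library below every Ctrl library, and 43 fell in every arm. Summed over the list, levels were 1525 ± 19.5 CPM under sgRNA-PURPL#1 and 1920 ± 37.2 CPM under sgRNA-PURPL#2, against 2759 ± 125 CPM in sgCtrl, and 1387 ± 14.1 CPM in PURPL#1-OE and 1297 ± 45.3 CPM in PURPL#2-OE, against 2925 ± 29.9 CPM in Ctrl (SD, n = 3 each). The controls of the tables were close here, unlike for interferon genes. Of 45 DNA replication genes, 43 fell with knockdown (median -0.49) and 42 with overexpression (median -0.84), and 40 fell with both. Of 26 homologous recombination genes, which repair broken forks and chromosomes, 20 fell with knockdown, 25 with overexpression and 20 with both. The replication-dependent histones, which package new DNA and whose main transcripts lack a poly(A) tail, did not fall with knockdown. Of 13 tested, 6 rose and none fell with knockdown (median 0.37), 8 fell and none rose with overexpression (median -0.32), and 4 were opposed.

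**Figure D3:**
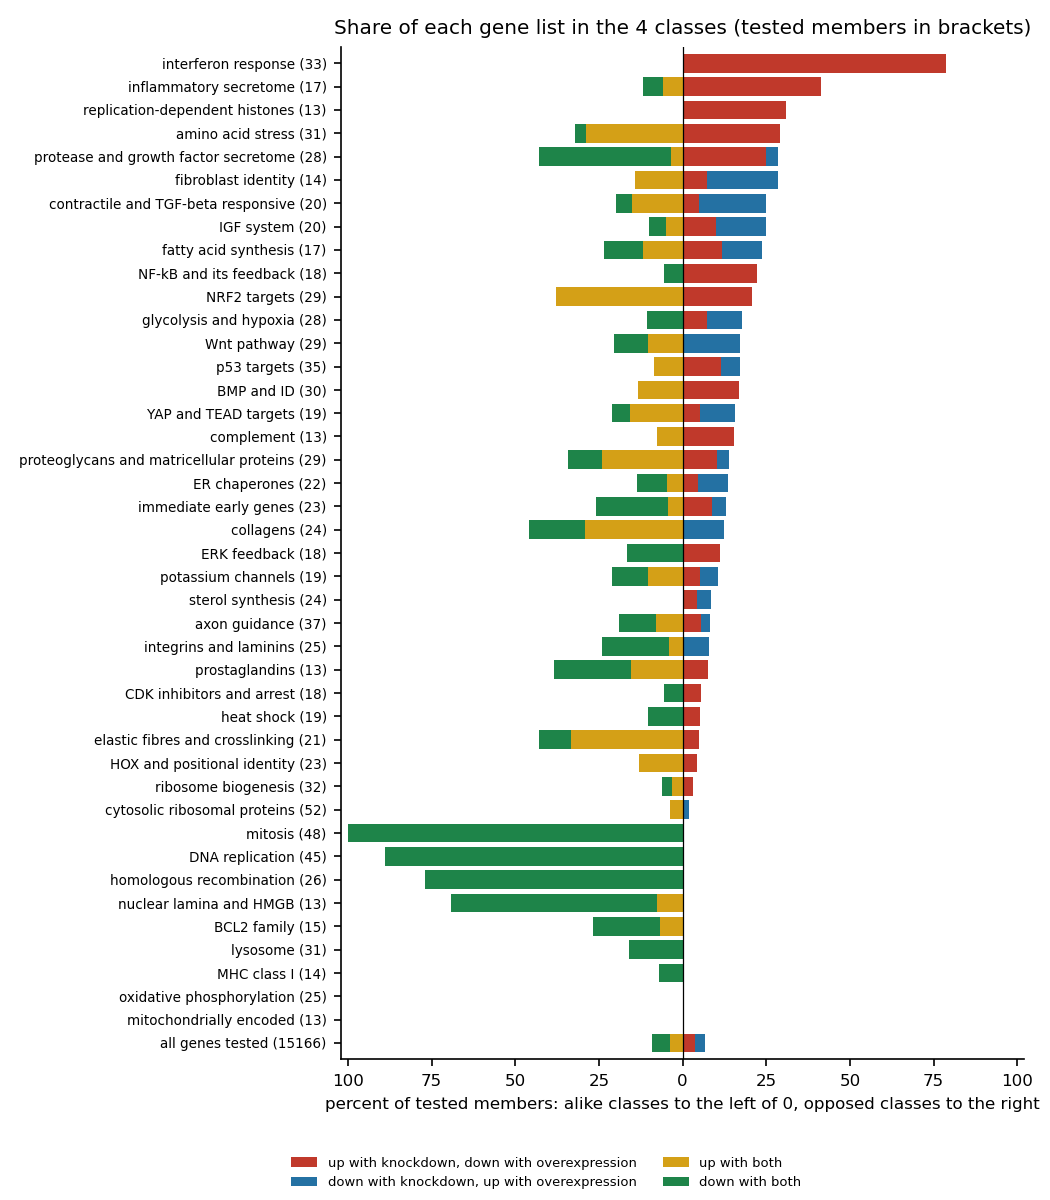
Share of each gene list's tested members in the 4 classes, beside the share over all genes tested. The mitosis, DNA replication and homologous recombination lists lie mostly in the class down with both, and the interferon list in the class up with knockdown and down with overexpression.

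RRM2, the regulatory subunit of ribonucleotide reductase, which makes the building blocks of DNA, had 48.2, 44.9 and 47.8 CPM under sgRNA-PURPL#1 and 49.2, 48.5 and 46.8 CPM under sgRNA-PURPL#2, against 98.6, 109.8 and 107 CPM in sgCtrl. It had 37.1, 35.8 and 37.6 CPM in PURPL#1-OE and 50.5, 48.3 and 45.6 CPM in PURPL#2-OE, against 90.9, 89.1 and 99.4 CPM in Ctrl. Every manipulated library was below every control library of its table. The change was -1.15 ± 0.05 with knockdown (adjusted p = 4.56e-21) and -1.14 ± 0.05 with overexpression (adjusted p = 6.49e-23), and the difference of effects was -0.00 ± 0.08. MKI67, the proliferation antigen Ki-67, averaged 140.2 ± 4.02 CPM under sgRNA-PURPL#1 and 176 ± 1.62 CPM under sgRNA-PURPL#2, against 279 ± 51.3 CPM in sgCtrl (SD, n = 3 each). It averaged 131 ± 10.2 CPM in PURPL#1-OE and 138 ± 14.4 CPM in PURPL#2-OE, against 381 ± 16.7 CPM in Ctrl (SD, n = 3 each). Its fall was deeper with overexpression, with a difference of effects of 0.67 ± 0.12 (adjusted p = 1.63e-04). Such a difference was called above 0 for 31 of the 48 mitosis genes and below 0 for none, so the list fell with both but further with overexpression. PLK1, a mitotic kinase, changed by -0.78 with knockdown and -0.99 with overexpression, and ANLN, which builds the ring that divides the cell, by -0.95 with knockdown and -1.05 with overexpression. MCM10, which starts the replication helicase, changed by -1.33 with knockdown and -1.69 with overexpression, CDC6, which loads that helicase, by -0.80 with knockdown and -1.07 with overexpression, GINS2, one of its subunits, by -0.83 with knockdown and -1.41 with overexpression, and E2F1, a transcription factor of the S-phase genes, by -0.87 with knockdown and -1.04 with overexpression. LMNB1, the nuclear lamina protein whose loss marks senescent nuclei, fell with both (-0.87 with knockdown and -1.28 with overexpression), and so did 8 of the 13 lamina and HMGB chromatin genes. HMGB3 was the exception that rose with both (0.56 with knockdown and 0.51 with overexpression).

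The promoters of the fallen division genes are shown because 2 well-known cell-cycle elements can be read in them. TTTGAA is the cell cycle homology region (CHR) of mitotic genes, and TTTGGCGC, TTTCCCGC and TTTGGCGG are forms of the E2F site of S-phase genes. Capitals mark those letters on either strand, in the 100 bases before the start, from RefSeq, build GRCh38.p14. The genes were chosen for display after their values were seen. The mitotic genes are MKI67 (chr10:128126424-128126523, minus strand), PLK1 (chr16:23678789-23678888, plus strand) and ANLN (chr7:36389762-36389861, plus strand), where ANLN has 2 matches that abut and MKI67 has 2 apart.
MKI67: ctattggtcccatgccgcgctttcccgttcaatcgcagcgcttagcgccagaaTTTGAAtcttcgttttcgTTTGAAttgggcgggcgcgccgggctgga
PLK1: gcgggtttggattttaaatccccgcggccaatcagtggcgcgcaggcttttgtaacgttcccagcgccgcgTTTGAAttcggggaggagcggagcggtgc
ANLN: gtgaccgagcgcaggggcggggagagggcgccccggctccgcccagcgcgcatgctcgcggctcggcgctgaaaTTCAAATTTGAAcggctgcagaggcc
The S-phase genes are E2F1 (chr20:33686386-33686485, minus strand), CDC6 (chr17:40287779-40287878, plus strand) and GINS2 (chr16:85688955-85689054, minus strand).
E2F1: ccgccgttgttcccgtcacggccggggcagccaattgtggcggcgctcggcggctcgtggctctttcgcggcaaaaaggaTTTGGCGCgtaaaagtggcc
CDC6: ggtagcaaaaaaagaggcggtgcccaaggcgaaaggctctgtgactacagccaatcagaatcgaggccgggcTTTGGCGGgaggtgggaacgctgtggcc
GINS2: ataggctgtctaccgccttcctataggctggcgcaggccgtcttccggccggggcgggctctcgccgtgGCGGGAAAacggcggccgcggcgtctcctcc
The CHR letters stood in the window of 67.5% of the 40 matched mitosis genes, 2.7% of the 37 matched DNA replication genes, 25.4% of the 637 matched genes down with both and 14.4% of all matched protein-coding genes. They also stood in 20.3% of genes up with knockdown and down with overexpression and 14.4% of the reverse class, so a share above that of all genes was not particular to the genes down with both. The E2F letters stood in 59.5% of the DNA replication genes, 10% of the mitosis genes, 11.6% of the genes down with both and 5.7% of all. The letters of the AP-1 site, TGANTCA, stood in 8.32% of genes down with both, 10.4% of genes up with knockdown and down with overexpression, 10.1% of the reverse class and 7.25% of all.

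Genes outside the cell cycle lists fell with both as well. PTGS2, the inducible cyclooxygenase that starts prostaglandin synthesis, had 23.8, 26.9 and 27.9 CPM under sgRNA-PURPL#1 and 26.4, 33.7 and 31.9 CPM under sgRNA-PURPL#2, against 72.3, 75.5 and 84.1 CPM in sgCtrl. It had 116, 107 and 111 CPM in PURPL#1-OE and 110.0, 105 and 96.9 CPM in PURPL#2-OE, against 262, 271 and 255 CPM in Ctrl. All manipulated libraries were below all controls of their table. The change was -1.45 ± 0.07 with knockdown (adjusted p = 1.01e-21) and -1.29 ± 0.05 with overexpression (adjusted p = 4.72e-24). PLAT, tissue plasminogen activator, fell by similar amounts (-1.39 with knockdown and -1.09 with overexpression), and PLAU, urokinase, mostly with overexpression (-0.45 with knockdown and -2.51 with overexpression). Of 28 tested genes of the protease and growth factor secretome, 11 fell with both, 7 rose with knockdown and fell with overexpression, 1 fell with knockdown and rose with overexpression, and 1 rose with both. Those that fell with both included the matrix proteases MMP3 (-0.82 with knockdown and -2.11 with overexpression) and MMP14 (-0.32 with knockdown and -0.34 with overexpression) and the EGF receptor ligands AREG (-0.87 with knockdown and -2.04 with overexpression) and EREG (-0.71 with knockdown and -1.14 with overexpression). MMP1 and MMP3 both lie in the metalloproteinase cluster of chromosome 11, and both fell with overexpression, while with knockdown MMP1 rose and MMP3 fell.

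The genes named by rank in the class down with both were TMEM158, known as a Ras-induced senescence gene, at -1.96 with knockdown and -1.87 with overexpression, the Notch ligand DLL4 at -1.78 with knockdown and -1.60 with overexpression, and the surface protein CDCP1 at -1.66 with knockdown and -1.53 with overexpression. CDCA7, which is induced by MYC and E2F, changed by -1.48 with knockdown and -1.64 with overexpression, and SLCO4A1, an organic anion transporter, by -1.32 with knockdown and -1.77 with overexpression. CNGA3, SYT7, LINC01182 and the cohesin acetyltransferase gene ESCO2 overlap other genes in part, and changed by -2.47 with knockdown and -2.33 with overexpression, -1.96 with knockdown and -1.48 with overexpression, -1.41 with knockdown and -1.51 with overexpression and -1.35 with knockdown and -1.42 with overexpression. Of 23 immediate early genes tested, 5 fell with both (21.7%, against 5.5% of all genes tested). EGR1 was one of them, at -0.77 with knockdown and -0.74 with overexpression. Of the others, 1 rose with both, 2 rose with knockdown and fell with overexpression, and 1 did the reverse. DUSP4, an ERK phosphatase, changed by -1.55 with knockdown and -1.03 with overexpression. LOXL4, a collagen crosslinker, fell further with knockdown (-1.90 with knockdown and -0.79 with overexpression).

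**Figure D4:**
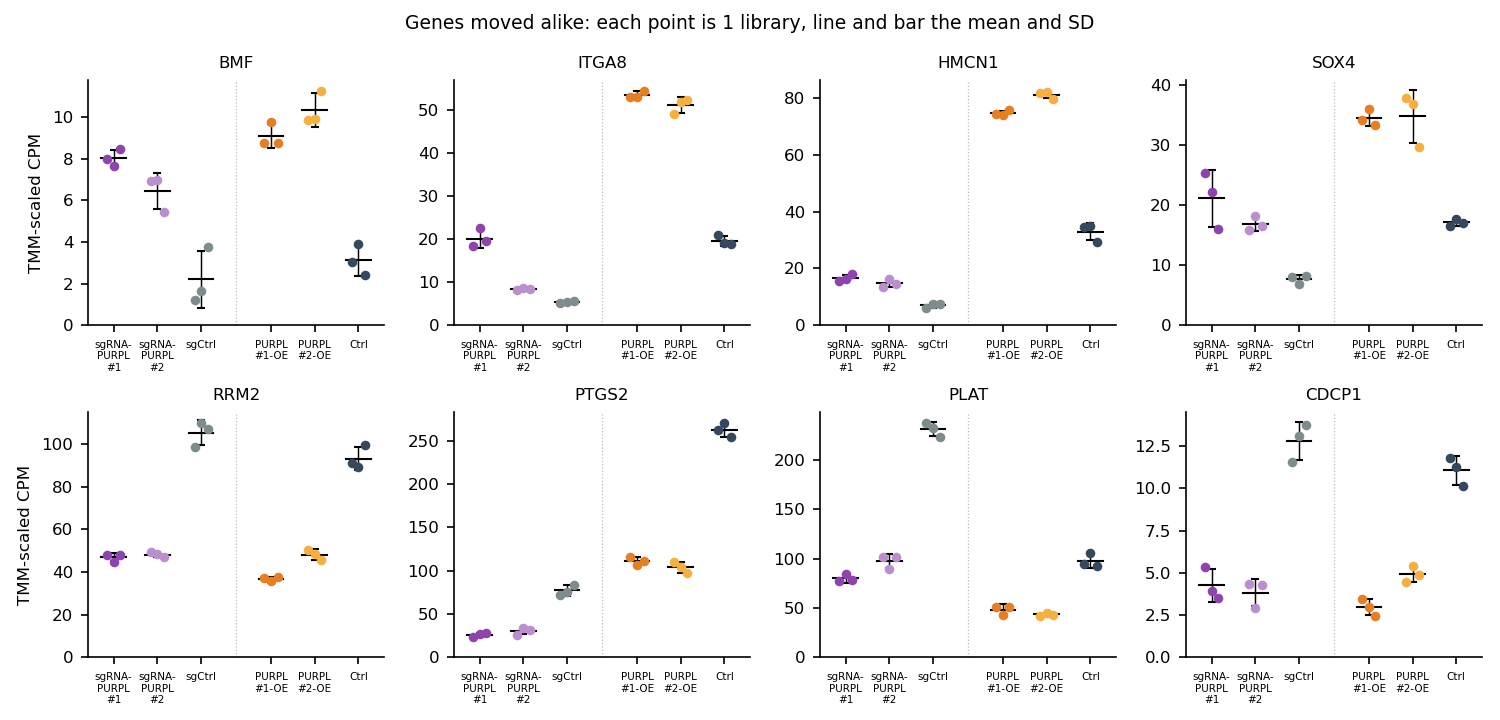
TMM-scaled CPM, on linear axes that start at 0, in each of the 18 libraries for 8 genes that moved alike, guide groups left of sgCtrl and overexpressing groups left of Ctrl, with a line at each group mean and an error bar of 1 SD (n = 3). BMF, ITGA8, HMCN1 and SOX4 are above the control in both tables, and RRM2, PTGS2, PLAT and CDCP1 below it.

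Genes up with both were of mixed function. BMF, a pro-apoptotic member of the BCL2 family, had 7.99, 7.66 and 8.44 CPM under sgRNA-PURPL#1 and 6.93, 6.97 and 5.42 CPM under sgRNA-PURPL#2, against 1.20, 1.63 and 3.77 CPM in sgCtrl. It had 8.75, 9.76 and 8.75 CPM in PURPL#1-OE and 9.84, 9.90 and 11.2 CPM in PURPL#2-OE, against 3.03, 3.92 and 2.40 CPM in Ctrl. All manipulated libraries exceeded their controls. The change was 1.69 ± 0.21 with knockdown (adjusted p = 4.38e-08) and 1.61 ± 0.15 with overexpression (adjusted p = 5.57e-11), and the difference of effects was 0.07 ± 0.27. Without sgCtrl replicate 3 the difference for BMF was called, at 0.72 (adjusted p = 0.048). ITGA8, a fibroblast and muscle integrin subunit, had 18.3, 22.5 and 19.6 CPM under sgRNA-PURPL#1 and 8.15, 8.63 and 8.44 CPM under sgRNA-PURPL#2, against 5.13, 5.50 and 5.61 CPM in sgCtrl. It had 53.1, 53.1 and 54.5 CPM in PURPL#1-OE and 49.1, 51.8 and 52.4 CPM in PURPL#2-OE, against 21, 19.1 and 18.8 CPM in Ctrl. Guide 1 libraries were well above guide 2 libraries, and both above sgCtrl. The change was 1.26 ± 0.11 with knockdown (adjusted p = 4.14e-13) and 1.41 ± 0.07 with overexpression (adjusted p = 3.03e-22). HMCN1, a giant basement membrane protein, changed by 1.15 with knockdown and 1.24 with overexpression, SOX4, a developmental transcription factor, by 1.30 with knockdown and 1.02 with overexpression, and SESN3, a sestrin that restrains growth signalling, by 1.05 with knockdown and 1.5 with overexpression. MYOCD, the coactivator of smooth muscle genes, changed by 2.13 with knockdown and 1.23 with overexpression. DACT1, a Wnt modulator, and AMOT, an angiomotin, overlap other genes in part and changed by 2.02 with knockdown and 1.69 with overexpression and 1.06 with knockdown and 1.38 with overexpression. C1QTNF7 summed to 21 counts over the 6 guide libraries and none in sgCtrl, at least 3.53-fold higher against a floor of 3 counts over the sgCtrl group, and changed by 1.40 ± 0.34 with overexpression. LINC02593 changed by 2.74 with knockdown and 1.11 with overexpression, and by 1.69 with overexpression when Ctrl replicate 1 was left out.

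Collagen and elastic fibre genes were split, with more in the class up with both than in any other. Integrins and laminins differed: of 25 tested, 1 rose with both, 5 fell with both and 2 fell with knockdown and rose with overexpression. Of 24 collagens, 7 rose with both (29.2%), 4 fell with both (16.7%) and 3 fell with knockdown and rose with overexpression (12.5%). The shares over all genes tested were 3.75%, 5.5% and 2.91%. COL1A1, the main fibrillar collagen of skin, averaged 1853 ± 73.2 CPM under sgRNA-PURPL#1 and 2248 ± 97.6 CPM under sgRNA-PURPL#2, against 1576 ± 116 CPM in sgCtrl (SD, n = 3 each). It averaged 5685 ± 206 CPM in PURPL#1-OE and 5196 ± 289 CPM in PURPL#2-OE, against 3747 ± 156 CPM in Ctrl (SD, n = 3 each). The change was 0.37 ± 0.05 with knockdown (adjusted p = 4.68e-07) and 0.54 ± 0.05 with overexpression (adjusted p = 2.71e-11). The small proteoglycans DCN and BGN, which regulate collagen fibril width, changed by 0.37 with knockdown and 0.65 with overexpression and 0.72 with knockdown and 0.78 with overexpression. Of 21 genes of elastic fibres and crosslinking, 7 rose with both (33.3%) and 2 fell with both (9.52%). Among those that rose were MFAP4 (0.48 with knockdown and 1.13 with overexpression) and FBLN1 (0.20 with knockdown and 1.00 with overexpression). ELN itself, elastin, was opposed (2.61 with knockdown and -0.31 with overexpression). The arms of ELN stood at 2.31 with guide 1 and 2.92 with guide 2, and at 0.05 in PURPL#1-OE and -0.67 in PURPL#2-OE. COL16A1, a fibril-associated collagen, rose with both (0.82 with knockdown and 0.32 with overexpression). Summed fibroblast markers ran from 26250 to 29930 CPM in overexpressing libraries against 21790 to 22380 CPM in Ctrl, and from 13650 to 14260 CPM in guide libraries against 13190 to 14200 CPM in sgCtrl, and their part in the matrix result was not tested.

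The stress programmes rose with knockdown and had members moving either way with overexpression. NRF2 drives genes that detoxify and keep glutathione reduced, and ATF4 drives genes that make and import amino acids when supply or folding fails. Of 29 NRF2 targets, 25 rose with knockdown and none fell (median 0.36), while 13 rose and 6 fell with overexpression (median 0.11). Over all genes tested, 12.8% rose with knockdown, and 21.1% rose and 22.8% fell with overexpression. The NRF2 targets that fell with overexpression, 20.7%, were thus near the share over all genes. GCLM, a subunit of the enzyme that limits glutathione synthesis, rose with both (0.48 with knockdown and 0.69 with overexpression), as did NQO1, a quinone reductase (0.82 with knockdown and 0.23 with overexpression). The cystine importer SLC7A11 rose with knockdown and fell with overexpression (1.27 with knockdown and -0.42 with overexpression), as did SQSTM1, an autophagy receptor (0.31 with knockdown and -0.55 with overexpression). Of 31 amino acid stress genes, 24 rose and 1 fell with knockdown (median 0.32), and 10 rose and 12 fell with overexpression (median 0.02).

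Within the amino acid list equal numbers rose with both and were opposed. ATF4 itself changed by 0.26 ± 0.06 with knockdown (adjusted p = 9.45e-04) and 0.25 ± 0.06 with overexpression (adjusted p = 5.25e-04). PSAT1 and PHGDH, enzymes of serine synthesis, rose with both, at 0.70 with knockdown and 0.59 with overexpression and 0.34 with knockdown and 0.33 with overexpression, and so did the lipoprotein receptor gene VLDLR (0.65 with knockdown and 0.70 with overexpression). WARS1, the tryptophanyl-tRNA synthetase, which interferon also induces, had 289.9, 293 and 287 CPM under sgRNA-PURPL#1 and 349, 322 and 342 CPM under sgRNA-PURPL#2, against 196, 192 and 191 CPM in sgCtrl. It had 325, 335 and 333 CPM in PURPL#1-OE and 283, 315 and 313 CPM in PURPL#2-OE, against 536, 559 and 597 CPM in Ctrl. The groups did not overlap in either table, and the change was 0.70 ± 0.05 with knockdown (adjusted p = 7.68e-15) and -0.83 ± 0.05 with overexpression (adjusted p = 2.36e-19). TRIB3, a pseudokinase induced late in the response, changed by 0.41 with knockdown and -0.98 with overexpression, DDIT3, the transcription factor CHOP, which overlaps another gene in part, by 0.68 with knockdown and -1.04 with overexpression, and SLC3A2, the heavy chain of the amino acid exchangers, by 0.59 with knockdown and -0.57 with overexpression. In all, 9 of the 31 rose with both and 9 rose with knockdown and fell with overexpression.

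**Figure D5:**
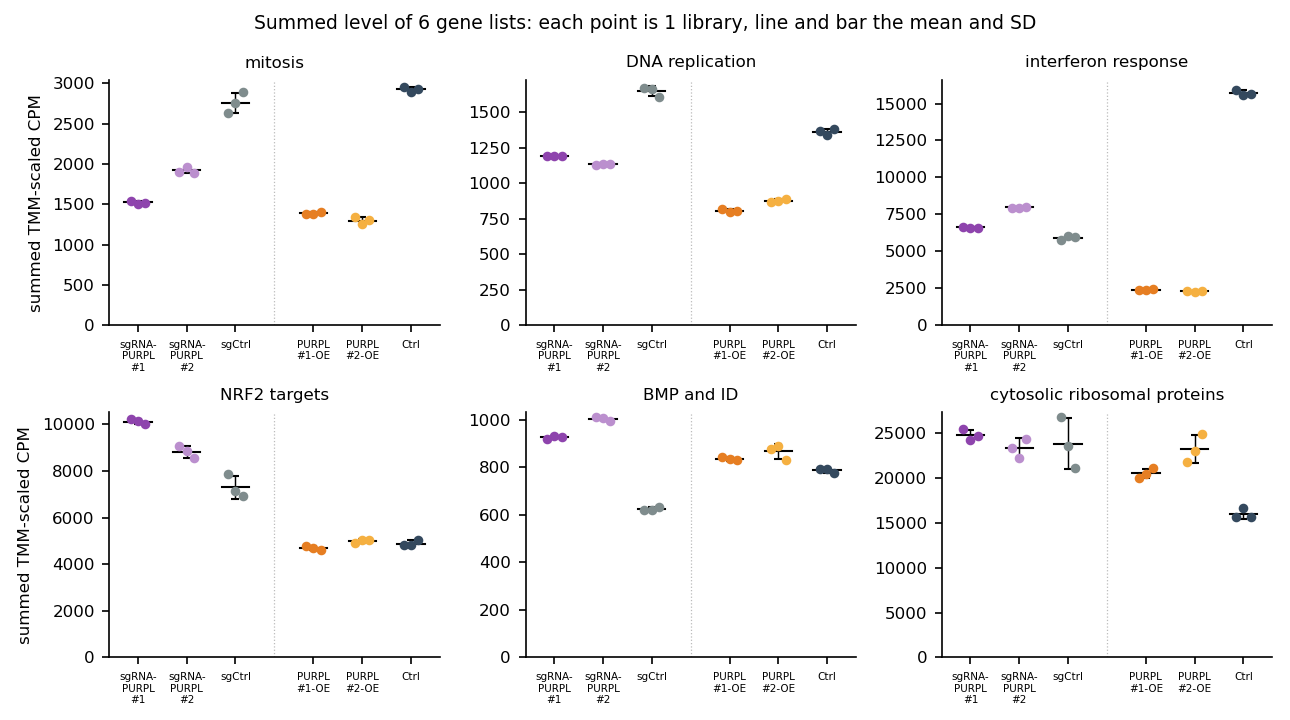
Summed CPM over the tested members of 6 gene lists in each of the 18 libraries, guide groups left of sgCtrl and overexpressing groups left of Ctrl, with a line at each group mean and an error bar of 1 SD (n = 3). Mitosis and DNA replication lie below the control in both tables, interferon genes above sgCtrl and below Ctrl, and ribosomal protein genes rise in the overexpressing groups, where all libraries lie at 19990 CPM or more against at most 16580 CPM in Ctrl.

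The ID genes encode inhibitors of differentiation that BMP signals switch on. ID1 had 99.5, 92.8 and 93.6 CPM under sgRNA-PURPL#1 and 115, 103 and 106 CPM under sgRNA-PURPL#2, against 23.9, 19.6 and 15.7 CPM in sgCtrl. It had 4.70, 2.77 and 3.76 CPM in PURPL#1-OE and 4.11, 4.68 and 2.99 CPM in PURPL#2-OE, against 5.55, 5.27 and 5.59 CPM in Ctrl. The guide libraries stood at several times sgCtrl, and the overexpressing libraries lay slightly under Ctrl. The change of ID1 was 2.37 ± 0.10 with knockdown (adjusted p = 7.22e-16) and -0.50 ± 0.15 with overexpression (adjusted p = 0.00671). ID2, ID3 and ID4 rose with knockdown by 2.24 ± 0.06, 1.98 ± 0.12 and 2.17 ± 0.24, and their overexpression values of 0.02 ± 0.05, -0.10 ± 0.13 and 0.16 ± 0.19 were not called. For each of these 4 genes the difference of effects was called, at 2.87, 2.22, 2.08 and 2.00. Over the 30 BMP and ID genes tested, 17 rose and 2 fell with knockdown (median 0.55), and 7 rose and 6 fell with overexpression (median 0.03). SMAD9, a transducer of BMP signals whose gene overlaps another in part, rose with both (1.31 with knockdown and 0.72 with overexpression).

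Cytosolic ribosomal protein genes moved mainly with overexpression. Of 52 tested, 42 rose and none fell with overexpression (median 0.44), while 3 rose and 1 fell with knockdown (median -0.04), and the difference of effects was called below 0 for 38. They summed to 20490 ± 529 CPM in PURPL#1-OE and 23210 ± 1547 CPM in PURPL#2-OE, against 15970 ± 524 CPM in Ctrl (SD, n = 3 each). The guide groups had 24720 ± 629 CPM and 23290 ± 1093 CPM, against 23790 ± 2814 CPM in sgCtrl (SD, n = 3 each). Mitochondrial transcripts took 4.97% to 6.24% of counts in overexpressing libraries against 4.26% to 4.8% in Ctrl, and the 10 most abundant genes 9.56% to 9.89% in overexpressing libraries against 7.88% to 8.24% in Ctrl, and the part of these shifts in the ribosomal result was not tested. Oxidative phosphorylation genes of the nucleus, 25 tested, and the 13 mitochondrially encoded genes had no member in any of the 4 classes. Of 24 sterol synthesis genes, 2 were in the opposed classes and none moved alike. Of 31 lysosome genes, 5 fell with both (16.1%, against 5.5% of all genes tested), 1 of them in every arm. The other classes held no lysosome gene.

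Long noncoding RNAs made up a smaller share of each class than of the genes tested. Of 2192 long noncoding RNAs tested, 1.28% rose with knockdown and fell with overexpression, 1.37% did the reverse, 1.87% rose with both and 1.64% fell with both. The shares of the 12423 protein-coding genes were 4.23%, 3.27%, 4.21% and 6.36% in the same order. Long noncoding RNAs were also called less often in each experiment alone. With knockdown 161 rose and 118 fell, against 1744 and 1835 protein-coding genes, and with overexpression 371 rose and 261 fell, against 2735 and 3144. Smaller shares in classes that need both calls follow in part, and the role of count level was not tested. This grouping was made after the values were seen. At the far negative end of the difference of effects stood C10orf105 (-3.95 with knockdown and 0.67 with overexpression) and PURPL. Also there were HTR1B, with no count over the 6 guide libraries and 7 in sgCtrl, at least 4.62-fold lower, and TRBC2, with no count in the guide libraries and 3 in sgCtrl, for which no fold is given. With so few counts in the knockdown libraries, the size of the difference is uncertain for HTR1B and TRBC2. Their overexpression values are not reported here. SLA, which overlaps another gene in part, changed by 2.90 ± 0.41 with overexpression and was not called with knockdown (-1.67 ± 0.90). In each opposed or alike class, 29.6% to 36.2% of genes overlap another gene on their strand, in part or wholly. So do 4878 of the 15166 genes tested, so overlap was not particular to the classes. How the counting shared such reads is not given in the sources used here.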

How the data were processed

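Raw read counts per gene were deposited by the authors in 2 tables, one for the knockdown and one for the overexpression libraries, with gene coordinates per the file headers. The submitters' processing notes name cutadapt 3.3, HISAT2 2.1.0, SAMtools 1.11 and featureCounts 2.0.1, with GRCh38.p13. Neither strand setting nor annotation release is given in the sources used here, so overlapping genes and antisense pairs are uncertain.

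Columns were matched to samples by name. Replicate numbers are missing for 5 columns of overexpressing libraries, which entered as members of their group. Genes were kept by edgeR's filter (minimum count 10, minimum total 15), scaled by TMM over all 18 libraries, and tested with edgeR 4.0.16 (quasi-likelihood, 6 group means, 12 residual degrees of freedom, Benjamini-Hochberg adjustment over 15166 genes). CPM values were computed from the deposited counts. A class needs a call in both effects. The procedure was tested on simulated data.

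The members and gene lists were chosen with earlier results of these data known. Genes were named by rank within a class or list, 10 a class, 5 at each end of the difference and up to 4 a list, and others, such as the ID genes, PLK1, MX1 and ELN, after their values were seen. Some genes that the ranks name are not reported here. Alternatives were other scalings, DESeq2 1.42.0, limma-voom, no filter, each table alone, thinned counts, genes without same-strand overlap, a replicate block and leaving out each library.

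Replicates differed by more than sampling noise, with a chi-square per gene of at least 2.41. In the knockdown table sgCtrl was the least even group, with 4.09, 6.67 and 10.14 for its pairs of libraries. Pairs within a guide group ran from 2.41 to 3.15. In the deeper overexpression table, pairs within a group ran from 3.49 to 8.63. The knockdown p-values rest on a spread taken over all groups, and a separate spread for sgCtrl was not fitted.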

Additional observations from a re-analysis of the deposited data

How the results depend on the processing

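No effect of a named gene that was called in the main or the alternative run reversed its direction. The sign of effects called in neither was not checked, and the run of each table alone holds no difference of effects. Counts moved by over 1.5 times only when the 4878 genes with same-strand overlap were left out, which leaves 10288 genes and so fewer calls by construction. In that run 1275 rose with knockdown, 2109 rose with overexpression and the difference was positive for 1809. Of the classes, 371 rose with knockdown and fell with overexpression, 293 did the reverse and 365 rose with both. Ribosomal protein genes up with overexpression came to 23. Leaving out each library in turn gave 1468 to 2004 genes up and 1584 to 2016 down with knockdown, 2778 to 3338 up and 2915 to 3613 down with overexpression, and 2401 to 2755 positive and 2118 to 2366 negative differences. The classes ran from 427 to 569, 352 to 445, 456 to 568 and 702 to 829. The 48 mitosis genes fell with both in every such fit, and 24 to 26 interferon genes were opposed. With library totals in place of TMM the classes held 654, 375, 481 and 893 genes, and with DESeq2 500, 451, 573 and 784. The replicate block, fitted for the knockdown libraries, gave 547, 431, 555 and 814, and changed no call of a class by over 1.5 times. Same-numbered libraries of the knockdown table did not deviate together, with correlations of deviations from the group means of -0.06 to 0.03 over 9 pairs, against -0.06 to 0.08 for other pairs. Without the filter on low counts 32630 genes were tested.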
